A study of Rattus norvegicus with 12 samples.

Results

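The genes described here are 43 members of the TGF-beta, activin and bone morphogenetic protein (BMP) pathways. They are 6 ligands, 5 latency and processing proteins, 3 secreted binding proteins, 11 receptors and co-receptors, 7 Smads, 7 corepressors, ubiquitin ligases and Pmepa1, and 4 target genes. Members were taken by gene symbol. Each of the 43 symbols occurred once among the 32623 genes of the files, and all 43 passed the expression filter that left 13539 genes for testing. The RNA came from rat cells that the labels call primary hepatic stellate cells, isolated on a gradient from rats made cirrhotic by long-term inhalation of carbon tetrachloride. For 24 h the cells shared their medium, through the porous membrane of a Transwell insert, with 15000 viable human amniotic epithelial cells (hAEC) or as many human amniotic mesenchymal stromal cells (hAMSC), or they received vehicle (Veh). Each of these groups had 4 libraries, numbered 3, 4, 11 and 12 (hAEC), 7, 8, 15 and 16 (hAMSC) and 17, 18, 19 and 20 (vehicle). The labels give neither the strain, sex or age of the rats nor the content of the vehicle. Nor do they state that a group's libraries are separate animals or cultures, so the p-values describe the spread of these libraries alone, and that spread may be technical.

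TGF-beta is secreted in a latent complex, held by its own propeptide and by binding proteins of the matrix (Ltbp1, Ltbp3) or of the myeloid cell surface (Nrros), and acts once it is released. Ligands bring together type II and type I receptor kinases, which phosphorylate the receptor-regulated Smads: Smad2 and Smad3 for TGF-beta and activin, Smad1 and Smad5 for most BMPs. These enter the nucleus with Smad4, while Smad6, Smad7, Ski, Skil and the Smurf ubiquitin ligases restrain the signal. In the fibrotic liver TGF-beta is the best known driver of collagen production by stellate cells, and macrophages are both a source of TGF-beta and responsive to it.

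Total counts ran from 27382724 to 34922211 per library. Across the groups the libraries formed 2 sets, the lower-numbered (3, 4, 7, 8, 17 and 18, here set A) and the higher-numbered (11, 12, 15, 16, 19 and 20, here set B), each with 2 libraries of every group. The first principal component of the 2000 most variable genes held 85.4% of their variance and parted these sets, which the labels do not name. The labelled cell type was not what the markers showed. Of 16 macrophage markers 13 averaged over 100 CPM (read counts scaled to a common library total), among them Csf1r at 2229 and Cd68 at 1639 CPM. Of 13 stellate cell and myofibroblast markers 12 averaged under 5 CPM. Lrat, which makes the vitamin A esters of stellate cells, lay between 0 and 0.371 CPM, and the single stellate marker with a mean above 5 CPM was Reln, at 39.5 CPM (6.71 to 92.2 CPM). The cells are therefore called the sampled cells. The 16 macrophage markers summed to 8657 to 9322 CPM in set A and 20786 to 22534 CPM in set B, the 13 stellate markers to 63.3 to 102 and 26.4 to 31.8 CPM, and the 12 endothelial markers to 620.4 to 756 and 393 to 546 CPM. Reln alone made the stellate sum lower in set B: without it, a choice made after its values were seen, the other 12 summed to 8.48 to 13.0 CPM in set A and 15.1 to 21.4 CPM in set B. The macrophage markers went both ways. Lyz2, the most abundant, averaged 1109 CPM in set A and 9024 CPM in set B. Lower in set B were Cd14 (973 and 183 CPM), Marco (108 and 41.2 CPM), Clec4f (973 and 825 CPM) and Cd163 (121 and 106 CPM), and the remaining macrophage markers were higher. All 10 hepatocyte and 8 lymphocyte markers averaged under 5 CPM, as did 7 of 8 cholangiocyte and mesothelial markers. The lymphocyte markers summed to 12.4 to 14.5 CPM in set A and 3.49 to 6.49 CPM in set B, and the cholangiocyte and mesothelial markers to 1.89 to 8.38 and 14.7 to 26.1 CPM. In such bulk samples fewer cells of a type and less RNA per cell cannot be told apart.

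The main contrast among the members was between the library sets, and no member passed the test in any comparison of co-culture. In set B 9 members lay above every library of set A (26.9% of all 13539 genes did) and 14 lay below (28% of all genes). The sets were recognised in these same counts, so set differences are descriptions with no test, and nothing is read from these shares. The set means differed over 2-fold for 9 members, against 19.6% of all genes: 5 were higher in set B (9.71% of all genes) and 4 lower (9.93%). The median difference in either direction was 1.29-fold for the members and 1.30-fold for all genes. CPM are not divided by gene length, so each gene is compared only with itself.

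**Figure D1:**
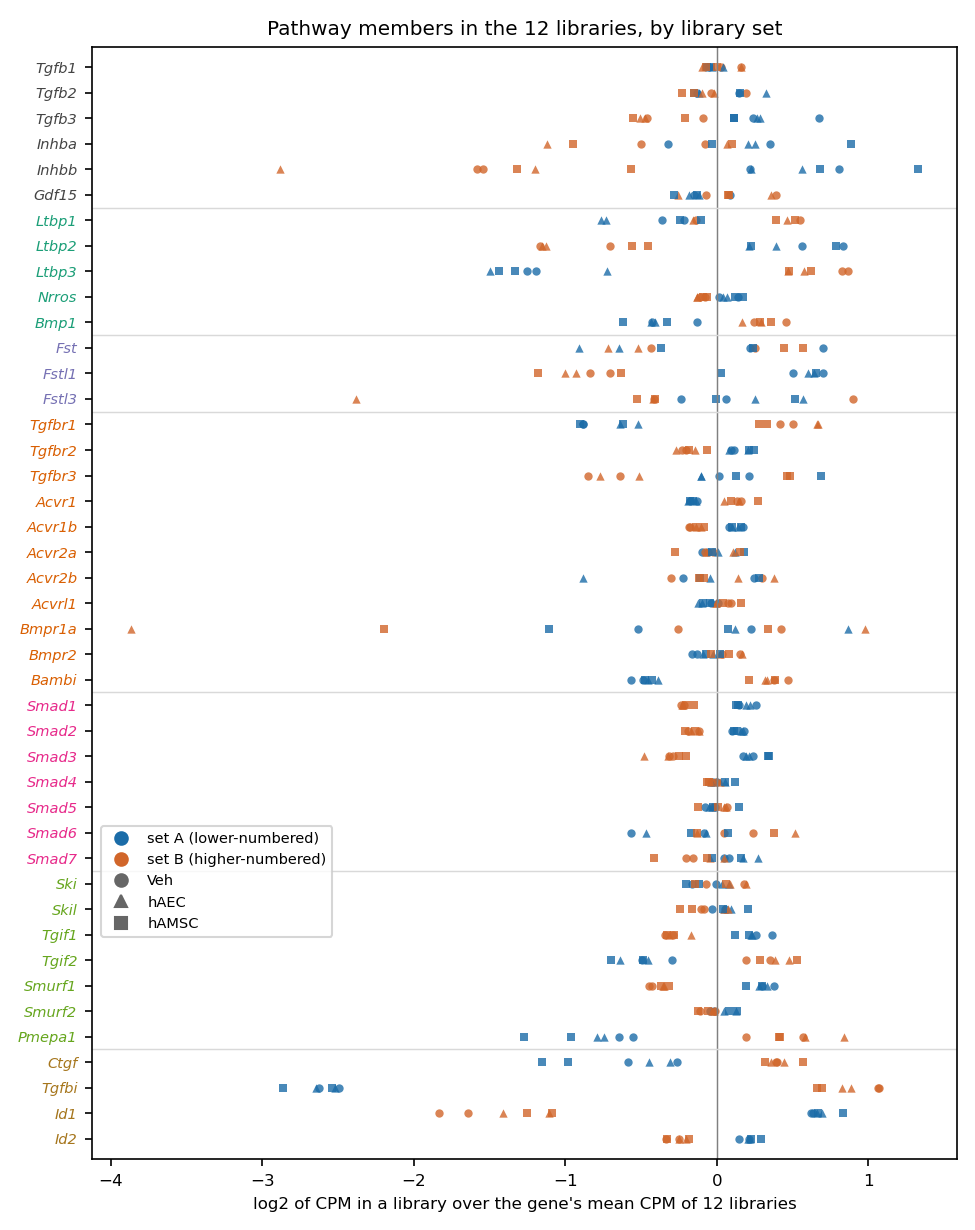
Each row is a member, ordered by role, and each point a library, placed at the log2 of its CPM over the gene's mean CPM of 12 libraries. Colours mark the library sets and symbols the groups: Tgfbi, Id1, Ltbp3, Inhbb and Tgfbr1 separate by colour, while Tgfb1, Smad4, Smad5 and Ski do not.

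The target genes held the widest contrast between the sets. Tgfbi, which encodes a TGF-beta induced matrix protein, was at 13.4 to 17.4 CPM in set A and 155 to 205 in set B, a ratio of the set means of 11.2. Ctgf (also called Ccn2), a matricellular growth factor induced by TGF-beta, was at 8.51 to 15.8 CPM in set A and 23.6 to 28.1 in set B. Its ratio of 2.003 was the nearest to the 2-fold line from above, and that of Tgif2 (1.84) from below. Id1 and Id2 encode inhibitors of helix-loop-helix transcription factors that BMP signalling induces, and they went the other way. Id1 was at 27.3 to 31.6 CPM in set A and 4.97 to 8.32 in set B, 4.15-fold lower in set B, and Id2 at 151 to 167 CPM in set A and 108 to 119.8 in set B, 1.39-fold lower. Among these 4 genes the TGF-beta targets were thus higher in the set where the BMP targets were lower, without overlap between the 12 libraries.

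The 250 bases upstream of 5 genes on which the results turn are shown so that their sequence can be read beside their counts. Tgfbi had the highest ratio of set B to set A and Id1 one of the lowest. In the comparisons of co-culture, the member of smallest p was Tgfbr1 with hAEC, Tgfbi with hAMSC and Tgfbr3 between the co-cultures. Ctgf led only where such differences were compared between the sets, for hAMSC against vehicle and for hAEC against hAMSC. The sequences are from RefSeq on the rat assembly GRCr8, read 5′ to 3′ on the gene's strand up to the base before its annotated start. Capitals mark matches on either strand to CAGAC, a Smad box, or to GGCGCC, a GC-rich Smad site. The windows are chr17:7990114-7990363 (minus strand) for Tgfbi, chr3:161671314-161671563 (plus strand) for Id1 and chr1:22624615-22624864 (minus strand) for Ctgf. Those of the receptors are chr5:66449148-66449397 (plus strand) for Tgfbr1 and chr14:2634044-2634293 (plus strand) for Tgfbr3.
Tgfbi: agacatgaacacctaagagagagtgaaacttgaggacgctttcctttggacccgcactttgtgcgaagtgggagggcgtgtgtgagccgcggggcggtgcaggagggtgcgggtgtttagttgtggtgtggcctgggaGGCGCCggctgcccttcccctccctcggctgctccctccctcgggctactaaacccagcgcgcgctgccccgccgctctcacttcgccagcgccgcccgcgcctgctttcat
Id1: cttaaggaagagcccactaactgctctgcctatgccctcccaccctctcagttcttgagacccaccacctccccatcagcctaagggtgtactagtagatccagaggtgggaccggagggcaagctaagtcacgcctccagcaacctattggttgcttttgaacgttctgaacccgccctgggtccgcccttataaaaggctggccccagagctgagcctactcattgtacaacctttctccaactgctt
Ctgf: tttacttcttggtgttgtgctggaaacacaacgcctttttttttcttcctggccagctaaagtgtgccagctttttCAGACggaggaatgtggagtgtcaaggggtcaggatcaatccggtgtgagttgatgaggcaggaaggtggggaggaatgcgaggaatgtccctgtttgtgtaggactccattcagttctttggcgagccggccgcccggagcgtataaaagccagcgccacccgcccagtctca
Tgfbr1: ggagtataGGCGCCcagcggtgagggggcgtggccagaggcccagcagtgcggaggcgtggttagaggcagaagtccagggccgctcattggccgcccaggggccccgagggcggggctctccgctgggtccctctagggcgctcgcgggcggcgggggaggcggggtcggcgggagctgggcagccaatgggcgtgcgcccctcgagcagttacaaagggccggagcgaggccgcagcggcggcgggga
Tgfbr3: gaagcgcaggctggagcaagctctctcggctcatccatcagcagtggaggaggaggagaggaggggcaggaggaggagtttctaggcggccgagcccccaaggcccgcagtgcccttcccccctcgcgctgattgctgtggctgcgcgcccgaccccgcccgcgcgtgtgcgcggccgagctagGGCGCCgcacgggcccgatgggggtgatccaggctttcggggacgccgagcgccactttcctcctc

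Tgfbi, Tgfbr1 and Tgfbr3 each held 1 GGCGCC and no CAGAC, Ctgf held 1 CAGAC and no GGCGCC, and Id1 held neither in this window. A single upstream window was matched for 34 of the 43 members (Ctgf through its synonym), and none is shown for Gdf15, Bmp1, Fst, Acvr1, Acvrl1, Smad2, Smad6, Tgif1 and Smurf1. CAGAC was in 6 of these 34 windows (17.6%). It was in 42.9% of 33469 rat upstream windows of the same length and in 42.1% of the 10557 windows of tested genes. GGCGCC was in 9 of the members' windows (26.5%), against 8.7% of all and 16.5% of tested genes' windows. The palindrome GTCTAGAC, which shares the letters AGAC with the Smad box, was in 0 of the 34 and in 0.2% of all windows. The members' windows were also richer in G and C, with a median of 65.2% against 51.2% for all windows and 59.6% for those of tested genes.

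Among the ligands, Tgfb1, the main profibrotic isoform, was at about the same level in both sets, 244 to 264 CPM in set A and 239.8 to 287 in set B. Tgfb2 overlapped likewise (3.52 to 4.89 CPM in set A and 3.34 to 4.46 in set B), and so did Gdf15, a stress-induced distant relative of the family (26.5 to 34.3 CPM in set A and 27.1 to 42.4 in set B). Tgfb3 was lower in set B (2.15 to 3.17 CPM in set A and 1.36 to 1.86 in set B). Inhbb, which encodes the activin B subunit, was 4.16-fold lower (1.91 to 4.12 CPM in set A and 0.223 to 1.11 in set B). Inhba, the activin A subunit gene, was at 0.679 to 1.57 CPM in set A and 0.391 to 0.910 in set B, from only 12 to 51 counts per library.

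Latency genes separated in both directions. Ltbp3, which tethers latent TGF-beta, was 3.64-fold higher in set B (0.944 to 1.61 CPM in set A and 3.68 to 4.86 in set B). Ltbp2, a microfibril protein of the same family, was 2.55-fold lower (10.8 to 16.6 CPM in set A and 4.17 to 6.82 in set B). Ltbp1, which tethers latent TGF-beta as well, was at 0.708 to 1.12 CPM in set A and 1.08 to 1.77 in set B. Nrros, which anchors latent TGF-beta1 on macrophages, varied little, at 234 to 261 CPM in set A and 212 to 221 in set B, although the ranges did not touch. Bmp1, a protease that trims procollagens, was at 25.2 to 35.5 CPM in set A and 43.6 to 53.2 in set B.

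Of the secreted binding proteins, Fstl1, a follistatin-like glycoprotein, was 2.65-fold lower in set B (5.59 to 8.89 CPM in set A and 2.42 to 3.54 in set B). The activin-binding Fst (0.472 to 1.44 CPM in set A and 0.541 to 1.31 in set B) and Fstl3 (0.289 to 0.505 CPM in set A and 0.0652 to 0.635 in set B) overlapped at under 2 CPM.

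The receptors of TGF-beta itself moved apart between the sets. Tgfbr1, the type I kinase, was 2.32-fold higher in set B (319.9 to 418 CPM in set A and 726 to 952 in set B), while Tgfbr2, the type II kinase, was 1.26-fold lower (513 to 574 CPM in set A and 403 to 464 in set B). The co-receptor Tgfbr3 (betaglycan) overlapped, at 7.47 to 12.9 CPM in set A and 4.46 to 11.3 in set B. Of the activin receptors, the type I kinase Acvr1b was lower in set B (84.3 to 89.8 CPM in set A and 70.0 to 75.1 in set B). The type II kinases Acvr2a (11.8 to 14.3 CPM in set A and 10.4 to 14.1 in set B) and Acvr2b (0.757 to 1.69 CPM in set A and 1.13 to 1.81 in set B) overlapped. Acvr1, a type I receptor for BMPs, was slightly higher in set B (11.8 to 12.2 CPM in set A and 13.8 to 16.2 in set B), and Acvrl1, the type I receptor best known in endothelium, overlapped (34.7 to 37.98 CPM in set A and 37.6 to 42.3 in set B). The BMP type II kinase Bmpr2 was at 53.8 to 61.1 CPM in set A and 58.7 to 67.8 in set B. The type I kinase Bmpr1a was at 0.215 to 0.843 CPM in set A and 0.0318 to 0.913 in set B, with 1 to 28 counts per library. Bambi, a pseudoreceptor without a kinase, was 1.76-fold higher in set B (6.498 to 7.35 CPM in set A and 11.1 to 13.3 in set B).

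Of the 4 members among the Smads that receptors phosphorylate, Smad1, Smad2 and Smad3 were lower in set B without overlap. Smad3 was 1.47-fold lower (57.6 to 64.8 CPM in set A and 36.6 to 44.4 in set B), Smad1 1.31-fold (41.1 to 45.1 CPM in set A and 32.0 to 34.0 in set B) and Smad2 1.23-fold (64.6 to 68.3 CPM in set A and 52.2 to 55.7 in set B). Smad5 (23.3 to 27.3 CPM in set A and 22.6 to 25.8 in set B) and the shared partner Smad4 (48.4 to 54.0 CPM in set A and 47.4 to 50.3 in set B) overlapped. Smad9, another Smad that BMP receptors phosphorylate and no member here, was 5.93-fold higher in set B (2.43 to 3.60 CPM in set A and 16.4 to 19.2 in set B). The inhibitory Smads overlapped as well, Smad6 at 4.33 to 6.77 CPM in set A and 5.87 to 9.16 in set B and Smad7 at 31.2 to 38.5 CPM in set A and 23.9 to 32.8 in set B.

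The corepressors Ski (38.1 to 46.5 CPM in set A and 39.8 to 50.4 in set B) and Skil (99.1 to 117 CPM in set A and 85.3 to 106 in set B) overlapped. Of the 2 homeodomain corepressors, Tgif1 was lower in set B (83.6 to 99.2 CPM in set A and 60.6 to 68.4 in set B) and Tgif2 higher (1.91 to 2.52 CPM in set A and 3.54 to 4.47 in set B). Smurf1, a ubiquitin ligase of Smads and receptors, was 1.60-fold lower in set B (105 to 119.6 CPM in set A and 67.3 to 74.0 in set B), and its relative Smurf2 overlapped (58.0 to 65.6 CPM in set A and 54.9 to 59.2 in set B). Pmepa1, a membrane protein that TGF-beta induces and that limits Smad signalling, was 2.504-fold higher (2.12 to 3.49 CPM in set A and 5.86 to 9.16 in set B). The macrophage, stellate, endothelial, lymphocyte and cholangiocyte and mesothelial marker sums did not overlap between the sets either, and their part in these differences was not tested.

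The comparisons of co-culture ask whether the sampled cells differed after sharing medium with either human cell type. The fit took all 12 libraries and a term for the set, which keeps the set difference out of the spread. Calls are by edgeR's quasi-likelihood test, with p-values adjusted over all genes by Benjamini-Hochberg and a threshold of 0.05. Of the 43 members 0 were called in hAEC against vehicle (0% of all genes were called), 0 in hAMSC against vehicle (0.236%, or 32 genes) and 0 in hAEC against hAMSC (0.0222%, or 3 genes). By edgeR 4 members (5.61% of all genes) had an unadjusted p under 0.05 with hAEC, 5 (9.68%) with hAMSC and 10 (6.37%) between the co-cultures. These counts are 9.3%, 11.6% and 23.3% of the members. DESeq2 called 0, 2 and 2 members in the same order, and limma voom 0 in each. Over the alternatives that kept every library or took whole groups or sets, the genes called ran from 0 to 16, 0 to 155 and 0 to 80. The share of all genes is not given for DESeq2 or voom, so nothing is read from their member counts. The log2 difference was above 0 for 22, 20 and 24 members, against 48.5%, 48.9% and 50% of all genes. The median log2 difference of the members was 0.003 with hAEC and -0.012 with hAMSC, beside -0.003 and -0.003 for all genes. Any 2 of these comparisons share the libraries of a group.

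**Figure D2:**
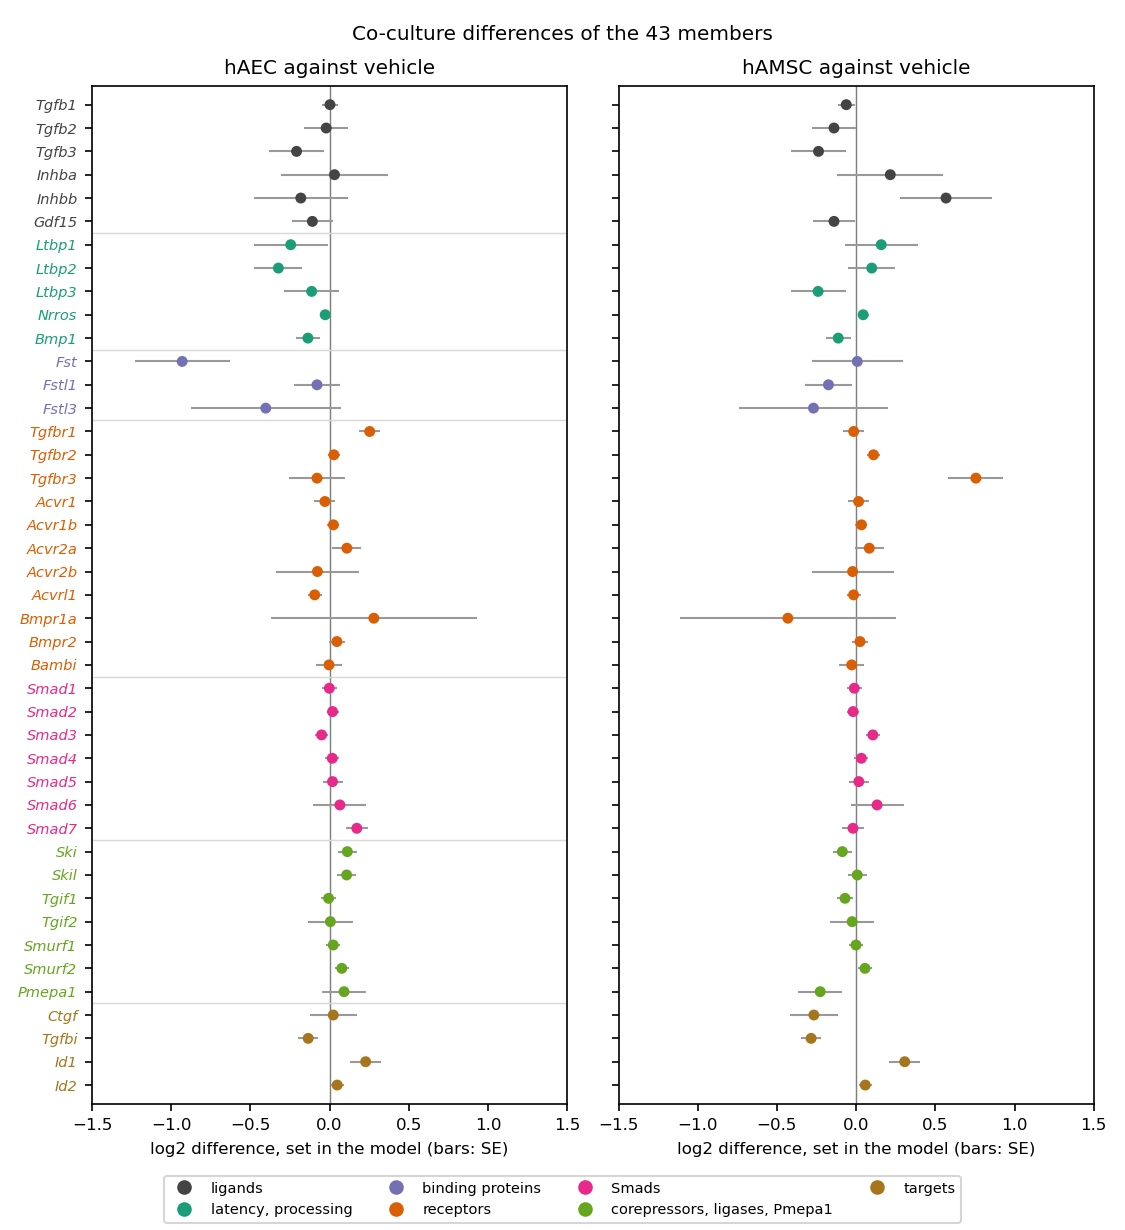
Points are log2 differences of the 43 members against vehicle, with the library set in the model, and bars are 1 standard error; colours mark the roles. Tgfbr1 (0.25) and Fst (-0.93) lie farthest from 0 for their error with hAEC, and Tgfbr3 (0.76) and Tgfbi (-0.28) with hAMSC; none passed the test.

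With hAEC the member of smallest p was Tgfbr1, the type I receptor. In vehicle it was at 325 and 325 CPM in set A and 799.9 and 848 CPM in set B. With hAEC it was at 418 and 385 CPM in set A and 952 and 948 CPM in set B. Both hAEC libraries lay above both vehicle libraries in each set, with log2 ratios of mean CPM of 0.31 in set A and 0.21 in set B. By edgeR Tgfbr1 differed by 0.25 on the log2 scale (SE 0.065, unadjusted p = 0.00183, adjusted p = 0.860). It passed when the hAEC and vehicle libraries were fitted alone (edgeR adjusted p = 0.0419; 0.0419 to 1 over all alternatives).

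Fst, which encodes the activin antagonist follistatin, came next. Vehicle libraries 17, 18, 19 and 20 had 40, 32, 30 and 18 counts, and hAEC libraries 3, 4, 11 and 12 had 14, 18, 19 and 17. In vehicle this was 1.44 and 1.03 CPM in set A and 1.06 and 0.658 CPM in set B, and with hAEC 0.472 and 0.568 CPM in set A and 0.620 and 0.541 CPM in set B. Every hAEC library lay below the vehicle libraries of its set, although in set B vehicle 20 came close. By edgeR Fst differed by -0.93 on the log2 scale (SE 0.30, unadjusted p = 0.00680, adjusted p = 0.860).

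The inhibitory Smad gene Smad7 in vehicle was at 33.6 and 32.9 CPM in set A and 27.7 and 28.5 CPM in set B. With hAEC Smad7 was at 38.5 and 35.9 CPM in set A and 30.9 and 32.8 CPM in set B. It lay above vehicle in both sets. By edgeR Smad7 differed by 0.17 on the log2 scale (SE 0.069, unadjusted p = 0.0241, adjusted p = 0.881). The BMP target Id1 in vehicle was at 27.3 and 27.6 CPM in set A and 5.68 and 4.97 CPM in set B. With hAEC Id1 was at 28.7 and 28.1 CPM in set A and 6.65 and 8.21 CPM in set B. Its difference was 0.047 in set A and 0.48 in set B, again without overlap. By edgeR Id1 differed by 0.23 on the log2 scale (SE 0.10, unadjusted p = 0.0340, adjusted p = 0.881), and by 0.15 without vehicle 20. Acvrl1 in vehicle was at 37.98 and 36.9 CPM in set A and 39.9 and 40.3 CPM in set B. With hAEC Acvrl1 was at 34.7 and 35.4 CPM in set A and 37.6 and 37.6 CPM in set B, below vehicle in both sets. By edgeR Acvrl1 differed by -0.094 on the log2 scale (SE 0.044, unadjusted p = 0.0512, adjusted p = 0.881).

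Tgfbr1, Smad7 and Id1 were the 3 members whose hAEC libraries all lay above vehicle in both sets (4.39% of all genes did so). Fst and Acvrl1 were the 2 that lay below (3.6% of all genes). By role, the 5 latency genes and the 3 secreted binding proteins had log2 differences below 0, with medians of -0.14 and -0.40. Of the 7 corepressors, ubiquitin ligases and Pmepa1, 6 had values above 0 (median 0.078), as did 48.5% of all genes. The median was 0.019 for Smads, -0.065 for ligands and 0.024 for receptors, and no member of any role passed. The 11 endothelial markers other than Eng summed to 505 to 512 CPM with hAEC and 569.7 to 592 CPM in vehicle in set A. In set B they summed to 268 to 268 and 270.1 to 277 CPM, lower with hAEC in each set, and their part in these differences was not tested.

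With hAMSC the members of smallest p were Tgfbi and Tgfbr3. Tgfbi in vehicle was at 17.4 and 15.9 CPM in set A and 205 and 205 CPM in set B. With hAMSC Tgfbi was at 16.8 and 13.4 CPM in set A and 158 and 155 CPM in set B. In set B, where the gene was abundant, both hAMSC libraries lay below both vehicle libraries, and in set A the ranges overlapped. The difference was -0.14 in set A and -0.39 in set B on the log2 scale. By edgeR Tgfbi differed by -0.28 on the log2 scale (SE 0.065, unadjusted p = 0.00052, adjusted p = 0.117). Tgfbi passed in set B alone, 2 libraries against 2 (edgeR adjusted p = 0.0109), with DESeq2 (adjusted p = 0.00405) and without hAMSC 7 (edgeR adjusted p = 0.00586). Over all alternatives the adjusted p of Tgfbi ran from 0.00405 to 1.

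Tgfbr3, the betaglycan co-receptor that presents TGF-beta2 and binds inhibins, was at 8.12 and 9.31 CPM in set A and 5.15 and 4.46 CPM in set B in vehicle. With hAMSC it was at 8.80 and 12.9 CPM in set A and 11.3 and 11.1 CPM in set B. Both hAMSC libraries of set B lay above vehicle, whereas in set A hAMSC 7 lay between the vehicle libraries. The difference was 0.32 in set A and 1.22 in set B on the log2 scale. By edgeR Tgfbr3 differed by 0.76 on the log2 scale (SE 0.17, unadjusted p = 0.000797, adjusted p = 0.128). It passed in set B alone (edgeR adjusted p = 0.00200), with DESeq2 (adjusted p = 0.00305) and without hAMSC 7 (edgeR adjusted p = 0.00392). Over all alternatives the adjusted p of Tgfbr3 ran from 0.00200 to 1. The 11 endothelial markers other than Eng summed to 496 CPM in hAMSC 7 and 606 CPM in hAMSC 8, against 569.7 to 592 CPM in vehicle of set A. In set B they summed to 313 to 337 CPM with hAMSC and 270.1 to 277 CPM in vehicle. In set B this sum and Tgfbr3 were thus both higher with hAMSC. In set A the sum of hAMSC 7 was below both vehicle libraries, while its Tgfbr3 lay between them. The part of these markers in the difference was not tested.

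**Figure D3:**
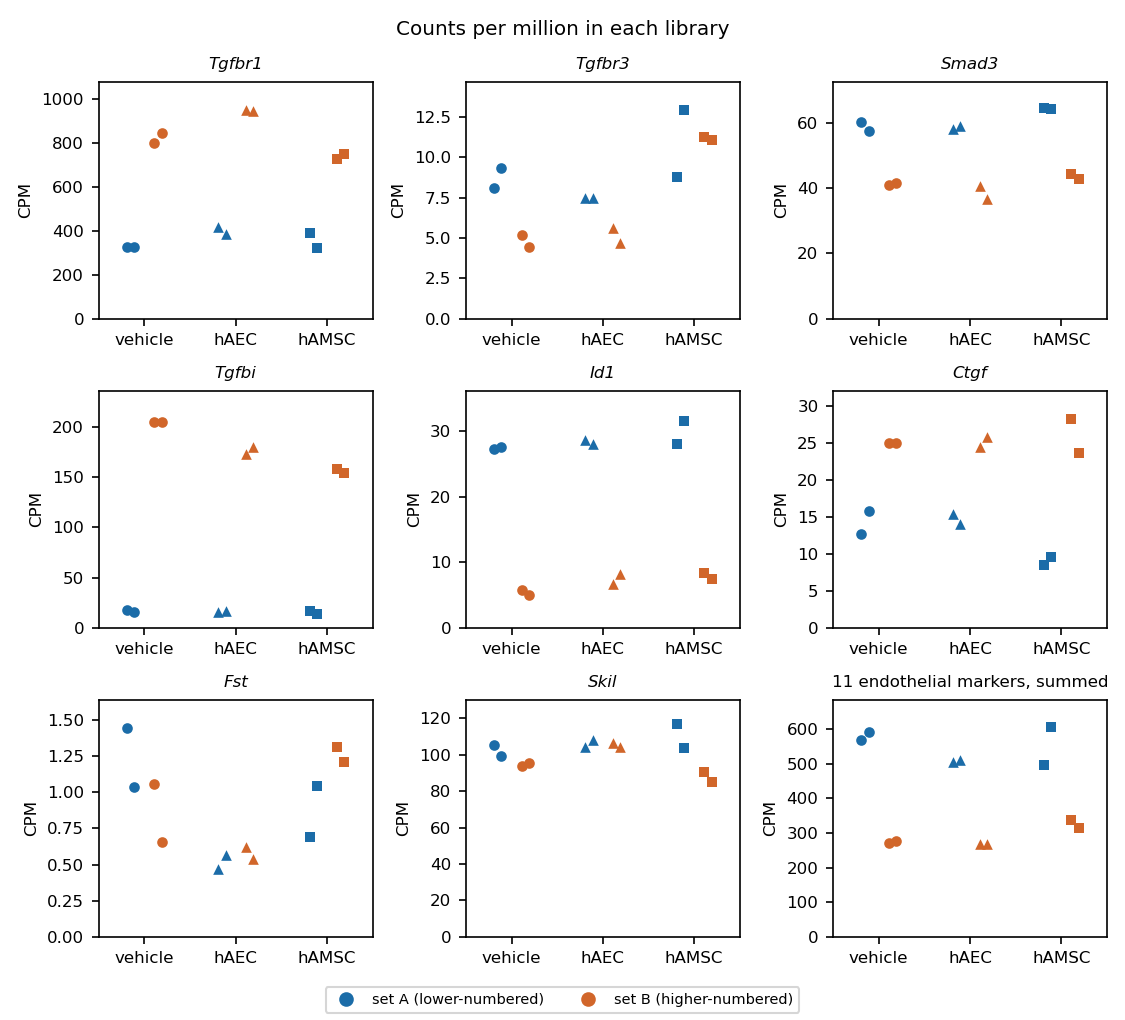
Each point is a library, with its CPM on an axis that starts at 0; blue marks set A and orange set B, and the last panel sums 11 endothelial markers. With hAMSC the set B libraries of Tgfbr3 (11.3 and 11.1 CPM) stand above vehicle (5.15 and 4.46 CPM), and the set A libraries of Ctgf (8.51 and 9.60 CPM) below it (12.6 and 15.8 CPM).

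Id1 was higher than vehicle with hAMSC as well, at 28.1 and 31.6 CPM in set A and 8.32 and 7.44 CPM in set B, without overlap in either set. Its log2 difference was 0.12 in set A and 0.57 in set B. By edgeR Id1 differed by 0.31 on the log2 scale (SE 0.10, unadjusted p = 0.00663, adjusted p = 0.286). Tgfbr2 in vehicle was at 525 and 516 CPM in set A and 414 and 420.2 CPM in set B. With hAMSC Tgfbr2 was at 561 and 574 CPM in set A and 464 and 427 CPM in set B. By edgeR Tgfbr2 differed by 0.11 on the log2 scale (SE 0.039, unadjusted p = 0.0131, adjusted p = 0.366). Smad3 in vehicle was at 60.3 and 57.6 CPM in set A and 41.0 and 41.8 CPM in set B. With hAMSC Smad3 was at 64.8 and 64.4 CPM in set A and 44.4 and 42.97 CPM in set B. By edgeR Smad3 differed by 0.11 on the log2 scale (SE 0.043, unadjusted p = 0.0261, adjusted p = 0.437).

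Id1, Tgfbr2 and Smad3 were the 3 members above vehicle in both sets with hAMSC (3.94% of all genes). Ltbp3 was the 1 below (4.49% of all genes), at 1.06 and 0.984 against 1.12 and 1.16 CPM in set A and 3.71 and 4.11 against 4.73 and 4.86 CPM in set B. The ligand gene Tgfb1 had a log2 difference of -0.063 (SE 0.052) with hAMSC and 0.003 (SE 0.052) with hAEC. By role, the median log2 difference with hAMSC was -0.10 for ligands, 0.015 for receptors, 0.017 for Smads and -0.10 for the target genes. It was 0.044 for the latency genes (3 of 5 above 0) and -0.17 for the secreted binding proteins (1 of 3 above 0). For the corepressors, ubiquitin ligases and Pmepa1 it was -0.026 (2 of 7 above 0).

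Between the co-cultures, the 5 members of smallest p for hAEC against hAMSC were Tgfbr3, Tgfbr1, Smad3, Ski and Fst. Tgfbr3 was at 7.49 and 7.47 CPM in set A and 5.64 and 4.71 CPM in set B with hAEC, below the hAMSC libraries of the same set. By edgeR Tgfbr3 differed by -0.84 on the log2 scale (SE 0.17, unadjusted p = 0.000342, adjusted p = 0.140). Tgfbr1 was at 389 and 319.9 CPM in set A and 726 and 753 CPM in set B with hAMSC. The hAEC libraries lay above these in set B, and in set A hAEC 4 lay below hAMSC 7. By edgeR Tgfbr1 differed by 0.27 on the log2 scale (SE 0.065, unadjusted p = 0.00117, adjusted p = 0.220). Smad3 was at 58.4 and 59.1 CPM in set A and 40.8 and 36.6 CPM in set B with hAEC, below hAMSC in both sets. By edgeR Smad3 differed by -0.16 on the log2 scale (SE 0.043, unadjusted p = 0.00232, adjusted p = 0.324).

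The corepressor Ski with hAEC was at 45.1 and 46.5 CPM in set A and 46.8 and 50.4 CPM in set B. With hAMSC Ski was at 38.1 and 40.6 CPM in set A and 45.8 and 39.8 CPM in set B. By edgeR Ski differed by 0.20 on the log2 scale (SE 0.061, unadjusted p = 0.00465, adjusted p = 0.415). Fst had 24, 34, 39 and 33 counts in hAMSC libraries 7, 8, 15 and 16, or 0.688 and 1.05 CPM in set A and 1.31 and 1.21 CPM in set B, above the hAEC libraries of each set. By edgeR Fst differed by -0.94 on the log2 scale (SE 0.30, unadjusted p = 0.00619, adjusted p = 0.463).

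The hAEC libraries lay above hAMSC in both sets for 3 members (Smad7, Ski and Pmepa1; 3.69% of all genes). They lay below for 5 (Nrros, Fst, Tgfbr3, Acvrl1 and Smad3; 3.83% of all genes). All 7 corepressors, ubiquitin ligases and Pmepa1 had log2 differences above 0 (50% of all genes did), with a median of 0.064. Those of Smurf1 (0.024, SE 0.045), Smurf2 (0.022, SE 0.044) and Tgif2 (0.031, SE 0.14) were smaller than their SE. Tgfbr3 and Tgfbr1 passed with DESeq2, in set B alone and without hAMSC 7. For Tgfbr3 the adjusted p was 0.00124 with DESeq2, 0.0171 in set B alone and 0.00206 without hAMSC 7, the last 2 by edgeR. Over all alternatives it ran from 0.00124 to 1 for Tgfbr3 and from 0.00206 to 1 for Tgfbr1. Ltbp2 passed without hAMSC 7 as well. In set B the sum of the 11 endothelial markers other than Eng was lower with hAEC than with hAMSC. In set A the hAEC sums (505 and 512 CPM) lay between those of hAMSC 7 (496 CPM) and hAMSC 8 (606 CPM). The part of these markers was not tested.

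The interaction of group and set asks whether a co-culture difference was unlike in the 2 library sets, which share no library. By edgeR 0 of the 43 members passed for hAEC against vehicle (0% of all genes), 0 for hAMSC against vehicle (0.199%) and 0 for hAEC against hAMSC (0%). With DESeq2 the members called were 0, 1 and 0, and nothing is read from these, as its share of all genes is not given. At an unadjusted p under 0.05 by edgeR there were 2 members (5.4% of all genes), 9 (10%) and 3 (5.2%). The log2 difference had the same sign in both sets for 28 members with hAEC, or 65.1% against 50.6% of all genes. It had the same sign for 20 with hAMSC (46.5% against 50.3%) and for 25 between the co-cultures (58.1% against 51.2%).

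Ctgf came nearest to passing. With hAMSC in set A it was at 8.51 and 9.60 CPM, below vehicle at 12.6 and 15.8 CPM. In set B it was at 28.1 and 23.6 CPM, overlapping vehicle at 25.0 and 24.9 CPM. The log2 difference was -0.65 in set A and 0.054 in set B. The edgeR interaction, set B minus set A, was 0.71 (SE 0.17, adjusted p = 0.0985), with an unadjusted p = 0.000691. For Tgfbr3 it was 0.90 (SE 0.24, adjusted p = 0.168) and for Id1 0.44 (SE 0.16, adjusted p = 0.368) by the same edgeR fit. Ctgf passed with DESeq2 (adjusted p = 0.0484), with no expression filter and without hAMSC 16, its adjusted p running from 0.00122 to 0.385 over all alternatives. Tgfbr3 and Tgfbr1 passed with no expression filter and without hAMSC 8.

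For hAEC against vehicle the edgeR interactions of smallest p were 0.43 (SE 0.16, adjusted p = 0.885) for Id1, -1.94 (SE 0.88, adjusted p = 0.914) for Fstl3 and 0.50 (SE 0.25, adjusted p = 0.922) for Pmepa1. Fstl3, which binds activins, rests on 2 to 18 counts per library. In vehicle Fstl3 was at 0.289 and 0.356 CPM in set A and 0.635 and 0.256 CPM in set B, and with hAEC at 0.405 and 0.505 CPM in set A and 0.0652 and 0.255 CPM in set B. Pmepa1 in vehicle was at 3.29 and 3.49 CPM in set A and 5.86 and 7.60 CPM in set B. With hAEC Pmepa1 was at 2.97 and 3.06 CPM in set A and 7.70 and 9.16 CPM in set B. It lay below vehicle in set A and above it in set B. Single libraries weighed on these interactions: that of Fstl3 was -1.15 without vehicle 19, -1.29 without hAEC 11 and -3.19 without hAEC 12. That of Pmepa1 was 0.32 without vehicle 19, and that of Id1 0.27 without hAEC 12.

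For hAEC against hAMSC the edgeR interactions of smallest p were -0.74 (SE 0.16, adjusted p = 0.206) for Ctgf, 0.32 (SE 0.088, adjusted p = 0.481) for Skil and -0.57 (SE 0.24, adjusted p = 0.935) for Tgfbr3. Ctgf was at 15.3 and 13.9 CPM in set A and 24.4 and 25.7 CPM in set B with hAEC, above the hAMSC libraries of set A. Skil with hAEC was at 104 and 108 CPM in set A and 106 and 104 CPM in set B. With hAMSC Skil was at 117 and 104 CPM in set A and 90.4 and 85.3 CPM in set B. Its ranges were apart in set B and overlapped in set A. The interaction of Tgfbr3 was -0.32 without hAMSC 7 and -0.87 without hAMSC 8.

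**Figure D4:**
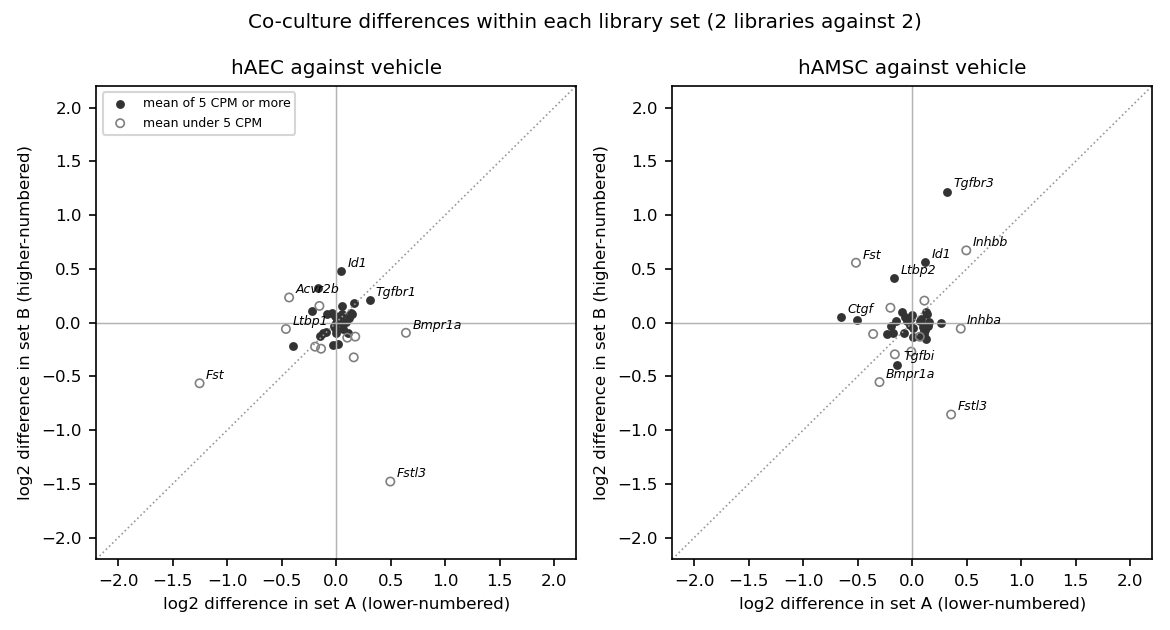
Each point is a member, placed by its log2 difference against vehicle in set A (horizontal axis) and in set B (vertical axis), 2 libraries against 2 in each; open points have a mean under 5 CPM and the dotted line marks equal values. Tgfbr3 with hAMSC lies at 0.32 and 1.22, and Ctgf at -0.65 and 0.054; most members lie near the centre.

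Other genes of the pathway were taken from a list of 63, of which 47 were tested. By edgeR 0 of these passed in any comparison or interaction. An unadjusted p under 0.05 was reached by 1 of them with hAEC (2.13%, against 5.61% of all genes), 3 with hAMSC (6.38% against 9.68%) and 2 between the co-cultures (4.26% against 6.37%). For the interactions, in the same order, it was reached by 4 (8.51% against 5.4%), 11 (23.4% against 10%) and 9 (19.1% against 5.2%). Furin, the convertase that cleaves the TGF-beta precursor, was at 82.6 and 91.7 CPM in set A and 235 and 243 CPM in set B in vehicle and at 77.7 and 77.1 CPM in set A and 209 and 209 CPM in set B with hAMSC, below vehicle in both sets. By edgeR Furin differed by -0.18 on the log2 scale (SE 0.046, unadjusted p = 0.00121, adjusted p = 0.147). Klf10, an early TGF-beta response gene, was the other of smallest p with hAMSC (edgeR log2 difference 0.25, adjusted p = 0.222). Between the co-cultures these were Furin again (0.20, edgeR adjusted p = 0.172) and Eng, the endothelial co-receptor endoglin (-0.34, adjusted p = 0.636). With hAEC they were Itgb8, the subunit of an integrin that frees latent TGF-beta (0.71, edgeR adjusted p = 0.860), and Fkbp1a, which guards the type I receptors (0.072, adjusted p = 0.881).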

How the data were processed

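Polyadenylated RNA of 12 libraries was measured. The authors deposited a table of expected counts by gene for each library. The submitters' processing notes name STAR, RSEM, FastQC, limma and Trim Galore and the builds rn6 and Rnor_6.0. The sources used here give no versions and no order. By the files, 90.1% of the values were whole. Expected counts were rounded, filtered (filterByExpr, minimum count 10), scaled by TMM and fitted with edgeR 4.0.16 (R 4.3.3; robust glmQLFit, glmQLFTest) with group and library set over 12 libraries, and with group crossed with set for the interactions, with Benjamini-Hochberg adjustment over 13539 genes. CPM use TMM-scaled library sizes, and SE is the log2 difference over the root of F. Set ratios compare mean CPM. The macrophage marker Itgam was not analysed here.

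The members, lists and sets were chosen with earlier results of these data known. Full values are given, per comparison, for members that passed and the 5 of smallest p (3 for interactions; 2 other pathway genes). Set contrasts are described by the 5 largest and 5 smallest ratios, beside each member's range. Alternatives were other scalings (relative log expression, upper quartile, library size), filters, DESeq2 1.42.0, limma 3.58.1 voom, a fit that is not robust, the group alone, 2 groups alone, each set alone, and leaving out each library. RSEM shares reads among similar genes, and the tests do not include the error of that step. Counts of all library pairs differed by more than sampling noise.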

Additional observations from a re-analysis of the deposited data

Results flagged for a closer look

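Acvr2b, a type II activin receptor gene, was at 1.69 CPM in hAMSC 8 against 1.28 to 1.31 CPM in the other 3 hAMSC libraries. The gap held 0.924 of the range of the group, above Dixon's 95% critical value for 4 samples, 1 of 129 such checks of a member in a group. Chance alone would flag about 1 in 20 groups of alike libraries. Each check took a group's 4 libraries over both sets, so it could hardly flag a member whose sets lay apart. The 1 of 129 is therefore not to be set beside that rate. The Acvr2b value rests on 55 counts in hAMSC 8, against 45, 39 and 35 in hAMSC 7, 15 and 16.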

How the results depend on the processing

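The log2 differences of the named members, recomputed under each alternative, gave 537 values. None of these changed direction, and 19 passed the threshold where the reported value did not. The named members were chosen for the smallest p in these same libraries, so a change of direction was unlikely from the start. Members called, 0 in each reported comparison, became 1 for hAEC against vehicle with the 2 groups alone (Tgfbr1), 2 for hAMSC against vehicle with DESeq2 and 2 in set B alone (Tgfbr3 and Tgfbi), and 2 for hAEC against hAMSC with DESeq2 and 2 in set B alone (Tgfbr3 and Tgfbr1). For the interactions it became 3 for hAMSC against vehicle with no expression filter (Tgfbr1, Tgfbr3 and Ctgf) and 1 with DESeq2 (Ctgf), and 1 for hAEC against hAMSC with no expression filter (Ctgf). The cause was not tested. Counts over all genes also moved with the setting, for the interaction of hAMSC against vehicle from 10 to 533. They are given below as ranges and not for each setting, so nothing is read from these member counts. Leaving out 1 library gave 0 to 2 members for hAMSC against vehicle (2 without hAMSC 7), 0 to 3 for hAEC against hAMSC (3 without hAMSC 7), 0 to 2 for the interaction of hAMSC against vehicle (2 without hAMSC 8, 1 without hAMSC 16), and 0 for the other 3. Where this left 1 library of a group in a set, that library is assumed to vary like the others.

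Counts over all genes, 0, 32 and 3 in the 3 comparisons, ran over the other settings from 0 to 16, 0 to 155 and 0 to 80, and over fits without 1 library from 0 to 0, 8 to 153 and 0 to 50. For the interactions, 0, 27 and 0 became 0 to 309, 10 to 533 and 0 to 260, and without 1 library 0 to 5, 0 to 158 and 0 to 27. The highest counts over all genes came without hAMSC 15 (hAMSC against vehicle), hAMSC 7 (hAEC against hAMSC) and hAMSC 16 (interaction of hAMSC against vehicle), the lowest without vehicle 18 for the first and vehicle 19 for the last. With the group alone in the model 0 members were called in each comparison. Members over 2-fold apart between the sets numbered 8 or 9 under every scaling and without any 1 library. Genes under 2 CPM, such as Fst, Fstl3, Inhba and Bmpr1a, are limited by counting. No paired analysis was possible because the groups share no sample numbers.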
